A study of Trichoderma reesei with 2 samples.

Results

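The 250 gene models described here were abundant in 1 RNA library of the fungus Trichoderma reesei and scarce in its counterpart. They were chosen by their measured levels, as those with at least 100 FPKM in the library whose title says aerobic (the aerobic-titled library) and a level there at least 32 times that of the library whose title says anaerobic (the anaerobic-titled library), after adding 1 FPKM to each value. Gene models of scaffold 7 were left out by the rule. FPKM counts sequenced fragments per kilobase of a gene model and is scaled to the depth of the library. The 250 came from a table of 9129 gene models, of which 1428 outside scaffold 7 reached 100 FPKM in the aerobic-titled library. The remaining 1178 of those are called the other abundant gene models below. Because both levels entered the choice, the height of the members in the aerobic-titled library and the size of their ratios are descriptions and were not tested.

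Both libraries came from 4-day-old hyphae of strain HJ48 grown for ethanol fermentation, and the study set out to compare growth without and with oxygen. The labels contradict each other, since the anaerobic-titled library carries an aerobic condition field and the reverse holds for its counterpart. Directions are therefore given between titles and not assigned to oxygen. The series text speaks of triplicates, but each title has 1 column of values, so no difference has a replicate check, no p-value is given, and culture, batch and condition cannot be told apart. In such bulk RNA, fewer cells that carry a transcript and less of it per cell cannot be told apart either.

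Trichoderma reesei is a filamentous ascomycete known for secreting cellulases and hemicellulases, the enzymes that break plant cell walls into sugars. With oxygen, fungal cells pass electrons from sugar breakdown to the respiratory chain. Without it, pyruvate can be decarboxylated to acetaldehyde and reduced by alcohol dehydrogenase to ethanol, which regenerates the cofactor that glycolysis needs. Genes for secreted enzymes and for secondary metabolites often lie close together in the genomes of such fungi.

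None of the members could be tied to one of these roles. The deposited table names genes by model identifiers alone, and 0 of the 9129 identifiers occurred among the 9116 genes of the RefSeq table of strain QM6a, so no function, chromosome position or sequence is given and no marker of hyphae could be checked. An identifier does tell how a model was made and where it lies. In the naming of the Joint Genome Institute, GeneWise names (e_gw1, gw1 and those with GeneWise spelled out) mark models built from similarity to known proteins, Fgenesh names mark models from gene prediction programs, and the prefix estExt marks a model extended with sequenced transcripts. The scaffold number is part of every name.

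Together the members accounted for 15.3% of the summed FPKM of the aerobic-titled library and 0.178% of that of the anaerobic-titled library. In the aerobic-titled library their levels ran from 100.03 to 22865 FPKM, with 238 FPKM as the median and 140.2 and 417 FPKM as quartiles. The corresponding levels in the anaerobic-titled library ran from 0 to 200.1 FPKM, with 3.05 FPKM as the median and 1.41 and 5.71 FPKM as quartiles. A large part of the summed level belonged to few members: the top 3 held 32.4% and the top 10 held 48.3% of the members' FPKM in the aerobic-titled library.

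Ratios below are aerobic-titled over anaerobic-titled, on the log2(FPKM + 1) scale unless a plain fold of FPKM is named. The median log2 ratio of the members was 5.96, with quartiles of 5.43 and 6.45 and a highest value of 9.55. Most gene models were higher in the aerobic-titled library, and the median over all 8197 gene models compared (those reaching 1 FPKM in either library) was 1.85, so the members' median lay 4.11 above it. Of the 7794 such gene models outside scaffold 7, 428 (5.49%) were at least 32-fold higher in the aerobic-titled library at any level, and 68 (0.872%) were at least 32-fold higher in the anaerobic-titled library. This balance depends on the scaling: with TMM scaling (trimmed mean of M values, which removes a common shift by raising the anaerobic-titled library by 1.90 on the log2 scale) the numbers were 135 and 220, so the order turned. With a scaling by the median ratio where both libraries reached 10 FPKM they were 282 and 106, and the members numbered 75 and 162 under these scalings. The rule with the libraries exchanged picked 64 of the 782 gene models that reached 100 FPKM in the anaerobic-titled library outside scaffold 7.

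**Figure D1:**
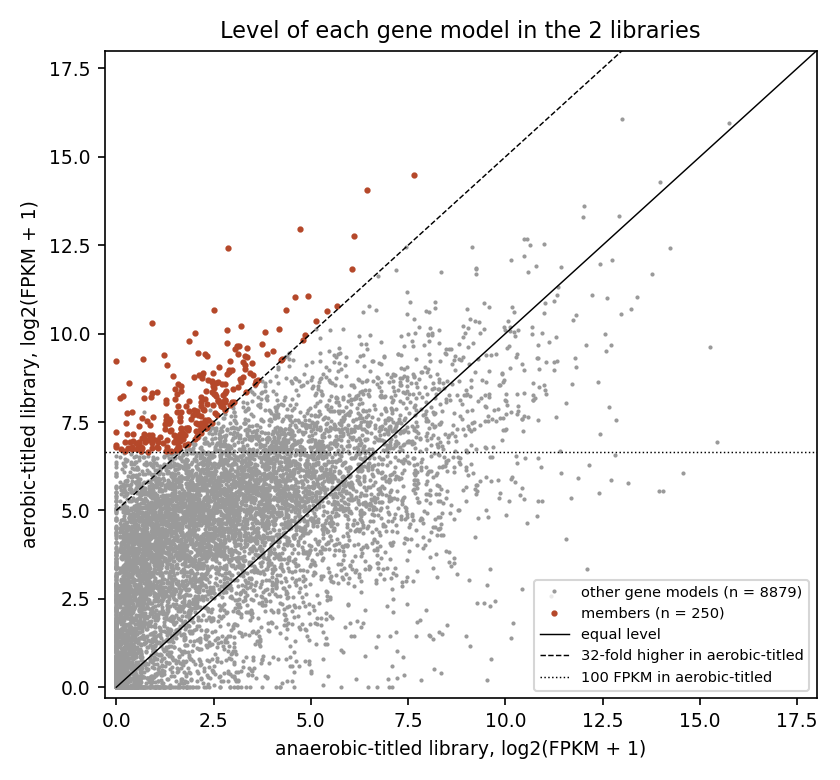
Each point is 1 gene model, with its level in the anaerobic-titled library on the x axis and in the aerobic-titled library on the y axis, both as log2(FPKM + 1). The 250 members lie above the dotted line of 100 FPKM and above the dashed line of a 32-fold ratio, and the cloud of other gene models continues up to both lines without a gap.

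The members were the upper end of a continuous spread of ratios. Among the 1428 abundant gene models, 122 were at least 2-fold lower in the aerobic-titled library than in its counterpart, 268 lay within 2-fold, 195 were 2- to 4-fold, 234 were 4- to 8-fold, 188 were 8- to 16-fold and 171 were 16- to 32-fold higher. The members followed on with 132 between 32- and 64-fold, 89 between 64- and 128-fold, 19 between 128- and 256-fold and 10 above that. No break in these counts set the members apart at 32-fold.

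**Figure D2:**
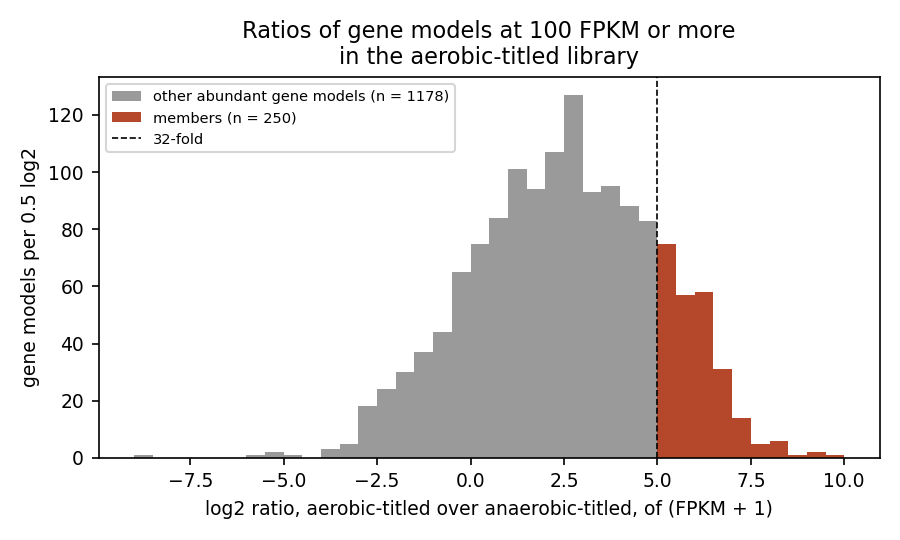
The histogram counts abundant gene models per 0.5 units of log2 ratio, aerobic-titled over anaerobic-titled, with the 250 members in red and the 1178 other abundant gene models in grey. The counts decline across the 32-fold line without a gap.

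Values next to the limits show the same continuity. Just inside the limit of level stood e_gw1.1.1140.1 at 100.03 FPKM and estExt_Genewise1.C_100278 at 101 FPKM in the aerobic-titled library. Just below it, estExt_GeneWisePlus.C_120338 had 98.9 FPKM and estExt_Genewise1.C_10226 had 97.9 FPKM, with folds after adding 1 FPKM of 63.8 and 63.2. At the limit of fold, estExt_Genewise1.C_150127 was just inside with 4.53 and 176 FPKM in the anaerobic-titled and aerobic-titled libraries, and e_gw1.19.340.1 with 3.17 and 133 FPKM. Just outside stood estExt_Genewise1.C_60370, with 174 and 5611 FPKM, and gw1.12.577.1, with 20.8 and 693 FPKM. The first of these outsiders was more abundant in the aerobic-titled library than all but 4 members.

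The member with the highest level was estExt_fgenesh5_pg.C_380025 on scaffold 38, the third most abundant gene model of the aerobic-titled library. It had 22865 FPKM there and 200.1 FPKM in the anaerobic-titled library, from 124689 and 1193 reads, a 114-fold difference with a 95% exact counting interval of 108 to 121. Read numbers were recovered from the FPKM values, and intervals cover counting error only. It was the only member at 100 FPKM or more in both libraries, and even so it ranked 509th in the anaerobic-titled library, higher than every other member.

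Another 4 members exceeded 5000 FPKM in the aerobic-titled library. The gene model fgenesh5_pg.C_scaffold_5000318 had 17257 FPKM there and 86.5 FPKM in the anaerobic-titled library, a 199.5-fold difference (interval 173 to 231). A level of 7907 FPKM was measured for estExt_fgenesh5_pg.C_190128, against 25.2 FPKM, which is 314-fold (interval 282 to 350.2) from 98187 and 342 reads. Both were among the 10 most abundant gene models of the aerobic-titled library, as were 4 members in all, and their intervals did not overlap that of the first. The model estExt_fgenesh5_pg.C_80435 had 6886 and 68.3 FPKM, a 101-fold difference (interval 90.9 to 112). With 5440 and 6.25 FPKM, e_gw1.15.374.1 had the highest log2 ratio of all members, 9.55, or 870.2-fold (interval 557 to 1446) from 15119 and 19 reads.

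Next in level came e_gw1.14.513.1, with 3646 FPKM in the aerobic-titled library and 66.2 FPKM in the anaerobic-titled library (55.1-fold, interval 46.2 to 66.2). It was followed by estExt_fgenesh5_pg.C_90123 at 2149 and 29.3 FPKM (73.4-fold, interval 62.9 to 86.1) and fgenesh1_pm.C_scaffold_4000248 at 2082 and 23.2 FPKM (89.7-fold, interval 68.2 to 120.2). The tenth, fgenesh5_pg.C_scaffold_31000052, stood at 1625 and 4.69 FPKM (347-fold, interval 236 to 531). At 1748 and 49.7 FPKM, estExt_GeneWisePlus.C_540005 was close to the limit, with a 35.2-fold difference whose interval of 31.5 to 39.4 included 32. The folds of the top 10 thus spread from 35.2 to 870.2, and no common ratio ran through them. Among the 100 most abundant gene models of the aerobic-titled library, 19 were members. This was close to their share of all 1428 abundant gene models, 17.5%, and the difference was not tested.

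**Figure D3:**
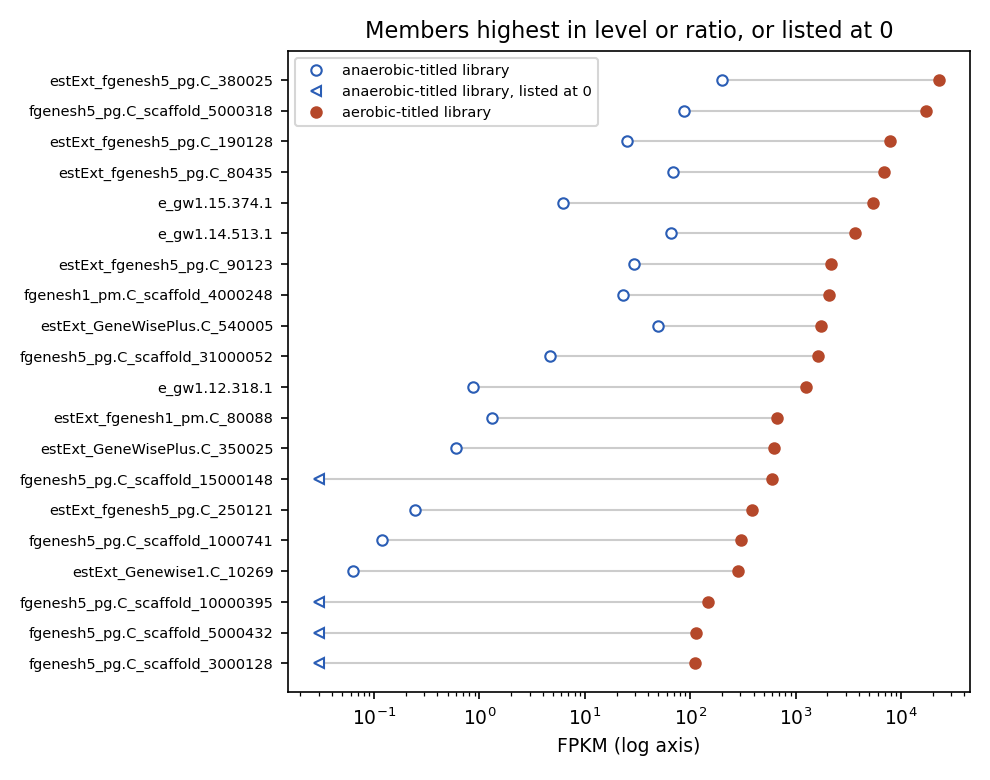
Each row is 1 of 20 members, the highest in level or ratio and those listed at 0, with FPKM on a log axis; open blue marks give the anaerobic-titled library, with triangles at the left edge for a listed value of 0, and filled red circles the aerobic-titled library. The highest members keep between 4.69 and 200.1 FPKM in the anaerobic-titled library, whereas the other 10 members shown, lower in the aerobic-titled library, are near or at 0 there.

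The 10 members with the highest log2 ratio had 286 to 7907 FPKM in the aerobic-titled library, all above the members' median of 238 FPKM. The measure fixes this, since adding 1 FPKM keeps a log2 ratio from exceeding that of the aerobic-titled level itself, and the tenth ratio was 8.08. Of the 10, 3 were also among the top 10 by level: e_gw1.15.374.1, estExt_fgenesh5_pg.C_190128 and fgenesh5_pg.C_scaffold_31000052. Second by ratio was e_gw1.12.318.1, with 1258 FPKM against 0.872 FPKM, where 1319 reads stood against 1 read (1442-fold, interval 258 to 57016). The extended model estExt_GeneWisePlus.C_350025 had 618 FPKM against 0.597 FPKM from 5681 and 6 reads (1035-fold, interval 475 to 2823). For estExt_fgenesh5_pg.C_250121 the values were 386 and 0.244 FPKM from 4347 and 3 reads (1585-fold, interval 542 to 7687). These 3 wide intervals overlap, so their order by ratio is not resolved at this depth.

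Similar values were found for the others. The short model estExt_fgenesh1_pm.C_80088 had 671 and 1.33 FPKM (506-fold, interval 197 to 1857). The gene model fgenesh5_pg.C_scaffold_1000741 stood at 302 FPKM against 0.12 FPKM, or 2304 reads against 1 read (2520-fold, interval 452 to 99562). The largest plain fold of these members, 4507, was that of estExt_Genewise1.C_10269, with 286 and 0.0635 FPKM from 4121 reads against 1 read (interval 808 to 178046). Both of the latter rank below e_gw1.15.374.1 on the log2(FPKM + 1) scale, because adding 1 FPKM compresses the ratio of values under 1 FPKM.

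Listed values of 0 in the anaerobic-titled library were found for 4 members, all of them unextended fgenesh5_pg models. The most abundant of these, fgenesh5_pg.C_scaffold_15000148, had 596 FPKM in the aerobic-titled library. Against the limit of 3 reads per library that a count of 0 allows, its level was at least 145-fold higher there. The other three were fgenesh5_pg.C_scaffold_10000395 with 148 FPKM, fgenesh5_pg.C_scaffold_5000432 with 114 FPKM and fgenesh5_pg.C_scaffold_3000128 with 110.3 FPKM. They were at least 69.6-fold, 119-fold and 72.5-fold higher in the aerobic-titled library.

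Most members were detected in the anaerobic-titled library. There, 52 of 250 were under 1 FPKM, and 26 were at 10 FPKM or more. By reads, 27 members had 1 to 3, 91 had 4 to 20 and 128 had over 20. Set against the quartiles of all compared gene models in that library, 58 members were below the lower quartile of 1.18 FPKM, 118 lay between it and the median of 4.95 FPKM, 62 between the median and the upper quartile of 22.2 FPKM, and 12 above. The class between the lower quartile and the median thus held the most members, and the limit of fold caps this level by itself. The counting interval of the plain fold lay wholly at 32 or more for 213 of the 250.

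Levels in the libraries moved together across members, with a Pearson r of 0.78 on log2 values and a Spearman rho of 0.71 over 250 gene models. The points share both libraries, and the limit of fold ties the coordinates by capping the level in the anaerobic-titled library. Members made up 14.3% of the 760 abundant gene models at 100 to 200 FPKM in the aerobic-titled library, 21.0% of 438 at 200 to 500 FPKM and 22.9% of 131 at 500 to 1000 FPKM. They made up 14 of 81 gene models at 1000 to 5000 FPKM and 5 of 18 above that. Adding 1 FPKM makes the rule ask for a larger plain fold at lower levels. The lower share in the lowest class is therefore partly built in, and these shares were not tested. The median level of the members in the anaerobic-titled library was 1.55 FPKM in the lowest of these classes and 18.3 FPKM at 1000 to 5000 FPKM.

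The kind of model was not part of the rule, apart from the names used to find scaffold 7. Models extended with transcripts were 158 of the 250 members (63.2%), against 59.9% of the other abundant gene models and 39.1% of all 8197 compared. The members thus resembled other abundant gene models in this respect more than they resembled the whole table. GeneWise models were 111 of the members (44.4%), against 633 (53.7%) of the other abundant ones and 53.1% of all compared. Fgenesh models were 137 members (54.8%), against 44.8% and 45.7%, and 2 members were of the remaining kg2 kind. Turned round, 137 of 665 abundant Fgenesh models were members (20.6%), against 111 of 744 abundant GeneWise models (14.9%).

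The order of both kinds was alike with and without the prefix. Among extended abundant models, 20.4% of Fgenesh and 16.2% of GeneWise models were members. Among unextended ones the shares were 20.9% and 13.1%. The difference depended on the limit of fold: at 16-fold, GeneWise models were 51.1% of 421 gene models inside and 52.5% of those outside, whereas at 64-fold they were 40.7% of 118 inside and 53.1% outside. It was also seen with the level of the anaerobic-titled library raised by TMM scaling, where they were 34.7% of 75 inside and 53.1% outside. No test was made of these shares.

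Members were shorter than other abundant gene models by median, and these were shorter than the whole table. The median recovered length was 759.5 bp for members, 918.5 bp for the other abundant gene models and 1104 bp for all compared. Lengths of unextended models are coding lengths for the most part, as 95.6% of them among members were multiples of 3. With the prefix, the medians were 924.5 bp for 158 members and 1125.5 bp for 706 other abundant models, and without it 481.5 bp for 92 and 561.5 bp for 472. TMM scaling turned the order for extended models, to 1189 bp for those still inside the limits against 1083 bp outside, and left that of unextended ones, at 399 against 555 bp.

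**Figure D4:**
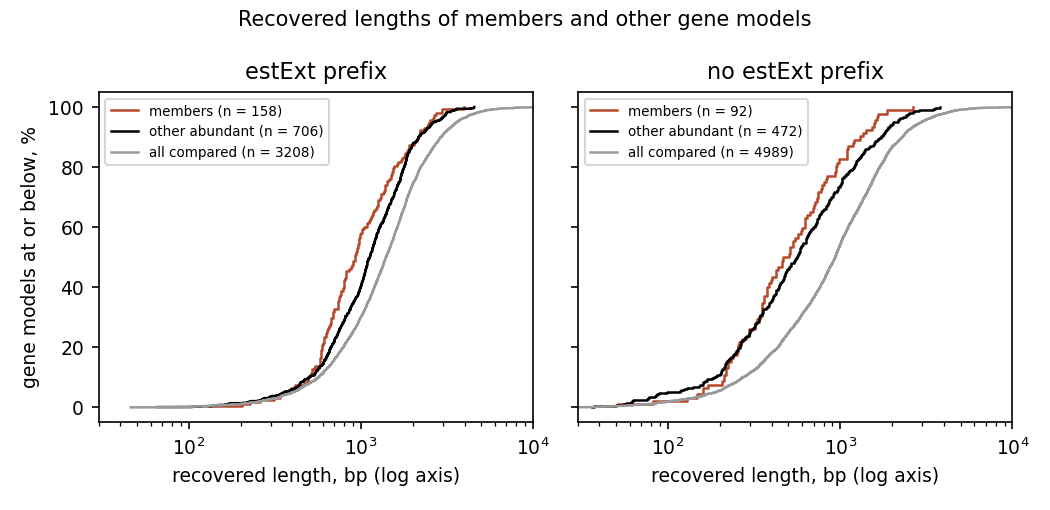
Cumulative share of gene models (y axis, %) at or below a recovered length (x axis, bp, log scale) for models with the estExt prefix (left) and without it (right). In both panels over the middle of the range the red line of the members lies to the left of the black line of other abundant gene models, with medians of 924.5 against 1125.5 bp and 481.5 against 561.5 bp.

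The share of abundant gene models that were members declined only slightly with length. It was 87 of 444 (19.6%) up to 600 bp, 142 of 848 (16.7%) between 600 and 2000 bp and 21 of 136 (15.4%) from 2000 bp. Depth differs with length as well, since 3 reads in the anaerobic-titled library correspond to fewer FPKM in a longer model. The part of length in the choice of members was not tested.

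Members were spread over 38 scaffolds. They were 3.21% of all compared and 17.5% of all abundant gene models outside scaffold 7, and over the 27 scaffolds with 100 or more compared gene models their median share of the abundant ones was 17.0%. Scaffold 1, which had the most gene models, held 39 members among 194 abundant gene models (20.1%). The largest shares of these 27 were 7 of 22 on scaffold 15, 5 of 17 on scaffold 20 and 10 of 36 on scaffold 13. At the other end, scaffold 24 had 0 of 14, which allows a share of up to 21.4%, scaffold 21 had 1 of 28, scaffold 27 had 1 of 16 and scaffold 16 had 3 of 44. Scaffold 2, the next after scaffold 1 in number of abundant gene models, had 10 of 102 (9.8%). The 25 smaller scaffolds held 21 members, among them the most abundant one. The scaffolds named were picked with these shares in view, and the shares were not tested.

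**Figure D5:**
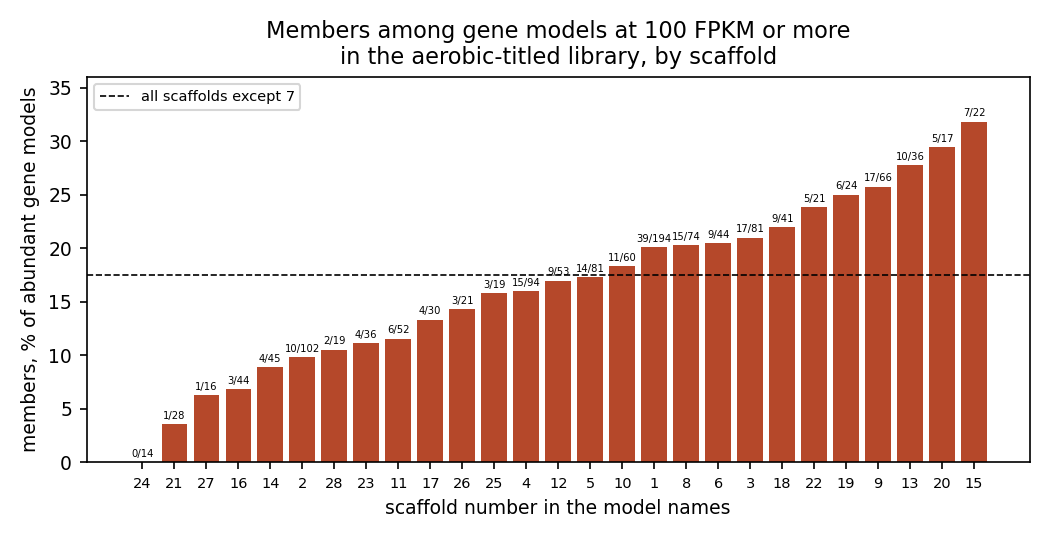
Bars give the members as a percentage of abundant gene models on each of 27 scaffolds, ordered by that share, with the counts above each bar and the share over all scaffolds except 7 as a dashed line at 17.5%. Shares run from 0 of 14 on scaffold 24 to 7 of 22 on scaffold 15, and all but that of scaffold 1 rest on fewer than 20 members.

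Members did not form runs of consecutive numbers. Fgenesh names carry a running number within a scaffold, which is taken here to follow the order of the models, with each kind of Fgenesh name kept apart. Of 137 members with such a name, 20 had a compared gene model of the same kind at the next number, and 0 of these 20 neighbours were members, which allows a share of up to 15.0%. With a limit of 16-fold in place of 32-fold this share was 5.71%. No run of 3 or more members was found. Most numbers next to a member do not occur in the table, so few immediate neighbours could be examined.

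Somewhat farther away, the share of members was higher beside members, on few pairs and with the kinds of name pooled. At a distance of 1 to 3 numbers, 8 of 94 neighbours of members were members (8.51%), against 7 of 365 neighbours of other abundant gene models (1.92%) and 3.13% around any numbered gene model. At 4 to 10 numbers the shares were 3.95%, 3.78% and 3.63%. The neighbours counted are not independent, since a pair of members enters from both sides, and the 8 stand for 4 pairs of estExt_fgenesh5_pg models. Members were also more frequent in that kind, with 70 among 1167 compared gene models, against 37 among 1822 unextended fgenesh5_pg models. The pooled 3.13% is therefore no like background for these pairs. The difference was not tested.

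On scaffold 8, estExt_fgenesh5_pg.C_80084 had 141 FPKM in the aerobic-titled library and 0.207 FPKM in the anaerobic-titled library, and estExt_fgenesh5_pg.C_80087 had 195 and 0.573 FPKM. Their log2 ratios were close, at 6.88 and 6.96. Scaffold 9 held 2 pairs. In the first, estExt_fgenesh5_pg.C_90027 stood at 220.3 and 2.15 FPKM and estExt_fgenesh5_pg.C_90030 at 317 and 0.894 FPKM, with log2 ratios of 6.13 and 7.39. In the second, estExt_fgenesh5_pg.C_90333 stood at 346 and 6.98 FPKM and estExt_fgenesh5_pg.C_90335 at 265 and 7.21 FPKM, with log2 ratios of 5.44 and 5.02. The pair on scaffold 4 was the most unequal, with estExt_fgenesh5_pg.C_40003 at 165 and 4.03 FPKM and estExt_fgenesh5_pg.C_40005 at 683 and 3.83 FPKM. These 8 gene models were named after their values were seen.

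Neighbours that were not members had a median log2 ratio of 2.04 at a distance of 1 to 3 numbers from a member (86 neighbours), against 1.47 beside other abundant gene models (358 neighbours) and 1.58 beside any. Of them, 63 of 86 (73.3%) were at least 2-fold higher in the aerobic-titled library, against 206 of 358 (57.5%) beside other abundant gene models. Over all 7794 compared gene models the share was 66.9%. These include the members and every kind of name, so they are no like background for the neighbours. The difference was not tested. At 4 to 10 numbers the medians were 1.77 and 1.94.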

How the data were processed

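RNA was extracted with Trizol and 3 micrograms entered each library, per the labels' protocols. The authors deposited 1 FPKM value per gene model and library. Per the submitters' processing notes, Bowtie2 2.2.3, TopHat2 2.0.12 and HTSeq 0.6.1 were used, in roles not stated. Not given in the sources used here are the genome build, annotation and strandedness, so gene models that overlap or share near-identical copies are uncertain. Columns were matched to samples through the sample descriptions, and groups follow the titles.

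FPKM were turned into reads by searching whole-number divisors between 1000000 and 40000000 that give whole reads over whole lengths (30 to 40000 bp). The divisors 8887469 (titled anaerobic) and 8126938 (titled aerobic) did so for 93.0% of 200 low gene models, against 88.5% for divisors 3 times as large. All 8910 gene models above 0 got reads, which sum to 90.9% and 91.0% of the divisors. Reads and lengths sharing a factor come out too small. The recovery was tested on simulated data whose lengths were all multiples of 3, unlike those of many extended models. The outcome of that test is not given here.

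Ratios use log2(FPKM + 1), which understates changes of low gene models. Intervals of plain folds are 95% exact (Clopper-Pearson). Level classes, name kinds, lengths, scaffolds and neighbours were described by counts and medians. Python 3.11.15, pandas 2.3.3 and SciPy 1.17.1 were used. Alternatives varied pseudocount, scaling, limits and scaffold 7.

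The members and lists were chosen with earlier results of these data known. Named members were the 10 highest in level, the 10 highest in ratio, up to 5 listed at 0 and gene models next to each limit; runs of 3 or more consecutive members would also have been named. Lists of hydrophobins, conidiation genes, the respiratory chain, glycolysis, ethanol synthesis, cellulases, hemicellulases, heat shock proteins and ribosomal proteins had 0 matched members and were not analysed.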

Additional observations from a re-analysis of the deposited data

How the results depend on the processing

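The number of members, 250 as reported, was 282 with a pseudocount of 0.1, 225 with columns scaled to equal sums, 253 with scaffold 7 kept and 213 when the counting interval had to lie at 32-fold or more. It was 100 with a pseudocount of 5, 162 when the anaerobic-titled library was raised by 0.73 (log2), the median ratio where both libraries reached 10 FPKM, and 75 with TMM scaling, which raised it by 1.90. Limits of 50 and 200 FPKM gave 383 and 141 gene models, and limits of 16- and 64-fold gave 421 and 118. The 428 gene models at least 32-fold higher in the aerobic-titled library became 282 with the median scaling and 135 with TMM, and the 68 higher in the other direction became 106 and 220. The members' median log2 ratio of 5.96 became 6.27 and 4.81 with pseudocounts of 0.1 and 5, 5.37 with the median scaling and 4.33 with TMM. These shifts follow from the construction of the alternatives. The 52 members under 1 FPKM in the anaerobic-titled library became 15 with TMM, and 26 and 93 were under 0.5 and 2 FPKM. The median length of 759.5 bp was 924.5 bp with and 481.5 bp without the estExt prefix. Unextended fgenesh5_pg models, 14.8% of members, were 20.3% at 64-fold and 26.7% with TMM. GeneWise models, 44.4% of members, were 51.1% at 16-fold and 34.7% with TMM; the cause was not tested. The settings for GeneWise models, the scalings of the 32-fold counts, and the 16-fold, 64-fold and TMM settings for length and TMM for fgenesh5_pg models, were chosen after seeing the data. None of 80 values of the 20 members highest in level or ratio or listed at 0 changed sign, which their choice makes unlikely. Of the 80, 28 lay outside a counting interval that was shifted onto the log2(FPKM + 1) ratio for members with reads in both libraries. The intervals of plain folds given above are not shifted in this way, and more of the 80 values lie outside those. No paired analysis was possible because there is a single library per title, and leaving out a replicate was likewise impossible. At this depth 3 reads limit the lowest values.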
